A study of Mus musculus with 9 samples.

Results

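Stomach exposed to X-rays at either of 2 doses was compared with mock-irradiated stomach in C57 mice, an inbred laboratory strain. The comparison used all 9 arrays of the series: 3 from mock-irradiated stomach (0 Gy), 3 after 6 Gy and 3 after 12 Gy. X-rays were given to the stomach at 2 Gy per minute under ketamine and xylazine anaesthesia, and gastric tissue was taken 7 days later from every group. The mice carried no stated allele or transgene, and their age and sex are not given in the labels. The value of a probe is the mean of the 6 Gy mean and the 12 Gy mean, minus the mock mean, so each dose counts equally. Each label speaks of 1 mouse per tissue sample. Gastric tissue was not further divided in the labels into corpus, antrum, forestomach or muscle.

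The lining of the stomach is renewed throughout life from dividing cells in the gastric glands, which replace surface mucous cells within days and acid-secreting parietal cells and enzyme-secreting chief cells more slowly. Ionizing radiation breaks DNA, and broken DNA activates the transcription factor p53, which induces genes of cell cycle arrest, repair and cell death. Dividing epithelial cells, lymphocytes and blood vessels are among the radiosensitive components of the gut wall, and long non-coding RNAs, transcripts without a protein product, are among the RNAs known to respond to DNA damage.

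Each array carried 91188 distinct probes of 60 bases, read in a single colour, of which 32004 (35.1%) were tested because every array of some group (mock, 6 Gy or 12 Gy) read them well above background. Levels are log2 processed intensity minus that of each array's 75th percentile, so a level of 0 is the 75th percentile and a difference of 1 is a doubling. That percentile lay between 49.02 and 76.7 intensity units, and 31.6% to 39.95% of probes were well above background, both lowest for mock replicate 1. Correlations between arrays ran from 0.925 to 0.984. With 9 arrays, their number sets the precision reached here.

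The scanner files name no gene for these probes. Genes were therefore found by exact match of the probe bases to RefSeq windows around gene starts (250 bases before to 50 after, assembly GRCm38.p6), which gave a place in the genome, and by the gene that spans that place on the same strand. A place was accepted with at least 40 matched bases. This located 643 probes, 252 of them tested, and 111 of the tested probes lay within 1 gene on its strand, for 105 genes. The rest of the tested probes have no gene name here. Because the windows surround gene starts, a gene was found only where its own start, or the start of a neighbour, overlaps the probe. Whether a probe lies in an exon, intron or UTR, and whether it matches elsewhere in the genome, was not analysed here.

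Among the named genes the largest difference was that of Hbb-bs, which encodes a β-globin chain of adult haemoglobin, higher by 2.07 ± 0.34 (log2 difference, standard error) after irradiation. Mrpl43, a protein of the large subunit of the mitochondrial ribosome, was higher by 0.58 ± 0.14. Trmt112, the activating partner of several RNA and protein methyltransferases, was higher by 0.66 ± 0.18. The predicted gene LOC115489115 was lower by 0.83 ± 0.20, and the long non-coding RNA Gm33296 was lower by 0.56 ± 0.14. In the probes with these values every irradiated array lay on 1 side of all 3 mock arrays, while a second Mrpl43 probe overlapped. These genes were chosen for a small p, which favours lack of overlap. Over all tested probes 12.3% had no overlap, and of the 111 gene probes 9 had none. The Hbb-bs and Trmt112 probes also entered the test through the irradiated groups, where they are high. Nothing is therefore read from the lack of overlap of any of these probes. No named gene passed limma's test at a Benjamini-Hochberg adjusted p under 0.05, so what follows gives sizes and their errors and calls no gene changed.

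Of the 32004 probes, limma called 0 (0%) at the adjusted threshold of 0.05, with 0.0817 as the lowest adjusted p. Without adjustment, 6805 probes (21.3%) had a p under 0.05: 4858 (15.2%) higher and 1947 (6.08%) lower after irradiation. At the looser adjusted p under 0.1 there were 1311 probes (4.1%), 859 of them (2.68%) higher and 452 (1.41%) lower. All 6 irradiated arrays lay above all 3 mock arrays for 2728 probes (8.52%) and below them for 1222 (3.82%). The 2 doses shared the mock arrays, and each on its own gave 0 probes (0%) at an adjusted p under 0.05. Without adjustment, the counts at p under 0.05 were 5158 (16.1%) for 6 Gy and 5660 (17.7%) for 12 Gy.

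The balance of higher and lower probes depended on how arrays were scaled and on which probes were tested. With the 75th percentile as reference, the median of all tested probes was 0.13 above 0, and 71.4% of the 6805 probes were higher. Quantile normalization, which gives every array the same distribution, put the median at 0.03 and that share at 50.1%. Scaling to the median of probes that every array detected gave -0.005 and 39.9%. Scaling to the E1A control probes, spiked transcripts that the tissue does not make, gave 0.33 and 92.9%, with 0 probes again at an adjusted p under 0.05. The 1311 probes at an adjusted p under 0.1 became 857 with quantile normalization (338 higher, 519 lower), 984 with the detected median (232 higher, 752 lower) and 4496 with the E1A probes (4254 higher, 242 lower). With the 75th percentile but no detection filter, the median of all 91188 probes was -0.05. Of the 9870 with an unadjusted p under 0.05, 46.2% were higher, and 0 probes had an adjusted p under 0.1. The E1A probes themselves stood at 3.27 ± 0.15 in mock (SD, n = 3) and 3.08 ± 0.17 in irradiated tissue (SD, n = 6), and this difference gave an exact two-sided permutation p of 0.167. A shift common to most probes therefore could not be placed on either side of 0, and gene values below are relative to the 75th percentile.

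**Figure D1:**
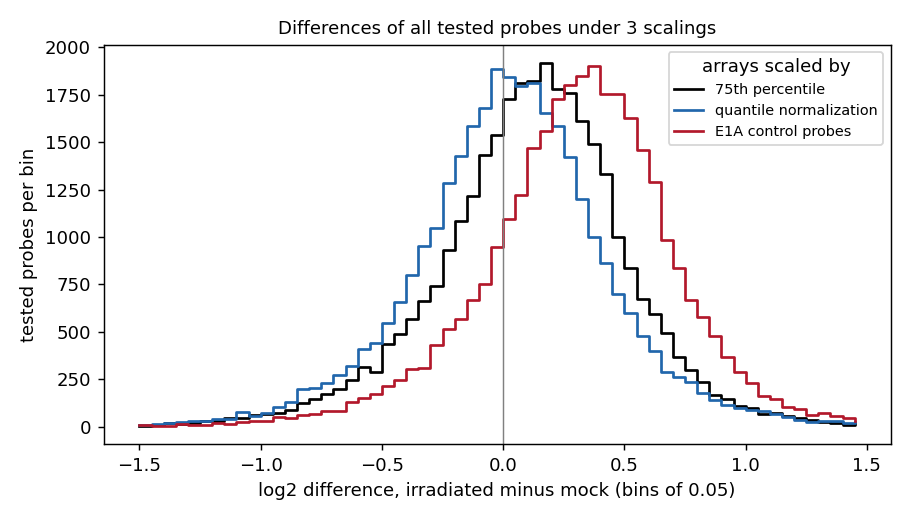
Number of tested probes (vertical axis) by log2 difference, irradiated minus mock (horizontal axis, bins of 0.05), with arrays scaled in 3 ways. The curves are shifted along the axis, with medians of 0.03 for quantile normalization, 0.13 for the 75th percentile and 0.33 for the E1A control probes.

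The arrays lay on 3 slides. Slide 1 held mock replicate 1, slide 2 held 6 Gy replicates 1 and 2 beside the other two mock arrays, and slide 3 held 6 Gy replicate 3 with the 3 arrays of 12 Gy. No slide held both 12 Gy and mock arrays, so for 12 Gy only a model with slide as a term separates them, through the 6 Gy arrays. In that model mock replicate 1, alone on its slide, adds nothing to the differences. Slide 3 is tied to slide 2 only through 6 Gy replicate 3. Every value given with slide as a fixed block therefore leans on that 1 array. With slide as a fixed block, 4963 probes had an unadjusted p under 0.05, and on slide 2 alone 6525 did. Neither gave a probe at an adjusted p under 0.05 or under 0.1, so the 1311 probes at the looser threshold were all lost with slide in the model. Without mock replicate 1, the only array of slide 1, they became 2949. Leaving out any other single array left 0 to 13. The ERCC control probes, another set of controls, differed by slide in their mean level relative to the 75th percentile. They stood at 0.65 to 0.93 on the slide 2 arrays, -0.28 to 0.06 on those of slide 3 and -0.11 on slide 1. What this difference between slides contributed to the probe values was not tested.

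The bases that the 2 genes with the smallest p among the higher gene probes were read with are shown here, because the files give sequence in place of a name. They are the first 30 of the 60 bases of each probe, 5′ to 3′ on the strand of the gene:
Hbb-bs: tttgcttctgacatagttgtgttgactcac
Mrpl43, probe A_51_P255441: gaccttgtgaataccctaattctgattcaa
Mrpl43, probe A_55_P2174895: ttggaccgtgagagggataggattggttcc

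The Hbb-bs probe matched 46 bases at chr7:103827879-103827924 on the minus strand of GRCm38.p6, at the start of the gene. In mock tissue its level was -0.47, -0.10 and -0.39, after 6 Gy it was 2.16, 1.61 and 2.25, and after 12 Gy it was 2.07, 1.95 and 0.44. The probe was well above background on 2 of the 3 mock arrays, so it entered the test through the irradiated groups, where it is high. Nothing is therefore read from its p or its lack of overlap. All 6 irradiated arrays were above every mock array, with 12 Gy replicate 3 far below the other irradiated arrays. The 95% interval of the difference ran from 1.30 to 2.84, and limma's adjusted p was 0.0817. The difference was 2.33 at 6 Gy and 1.81 at 12 Gy, and the difference between the doses was -0.52 ± 0.40 (standard error). Without 12 Gy replicate 3 the difference was 2.33 and limma's adjusted p was 0.0258, the only setting in which this gene passed. With normexp background correction and an offset of 50 the difference shrank to 1.24. On slide 2 alone it was 2.13. The mouse β-globin genes are close copies of each other, so the signal may not be from Hbb-bs alone.

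Hbb-bs was also the only member of the erythroid marker list to be matched, 1 of 12 genes. It is a transcript of red cell precursors and reticulocytes, so blood in the tissue would carry it. The α-globin genes, Alas2 and the other erythroid markers were not analysed here, and the part of blood in the Hbb-bs difference was not tested. In whole tissue, a change in the number of cells of a type and a change in RNA per cell cannot be told apart.

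Mrpl43 was read by 2 tested probes that do not overlap, at chr19:45005486-45005545 and chr19:45005626-45005685, both on the minus strand with all 60 bases matched. The first, A_51_P255441, stood at 2.37, 2.21 and 2.26 in mock, 2.93, 2.79 and 2.78 at 6 Gy, and 2.72, 3.04 and 2.88 at 12 Gy. Every irradiated array was above every mock array, the difference had a 95% interval of 0.27 to 0.89, and limma's adjusted p was 0.0861. The second, A_55_P2174895, stood at 3.12, 2.99 and 2.70 in mock, 3.52, 3.49 and 3.07 at 6 Gy, and 2.96, 3.59 and 3.45 at 12 Gy. It was higher by 0.41 ± 0.19 (standard error), its groups overlapped, with 4 of the 6 irradiated arrays above all mock arrays, and limma's adjusted p was 0.262.

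Mrpl43 belongs to a group of 7 genes for mitochondrial proteins, read by 8 probes. The difference was positive in 7 of the 8 probes, with a median of 0.19 beside 0.13 over all tested probes, of which 64.8% were positive. With quantile normalization 6 of the 8 were positive, with a median of 0.10, and with the median of detected probes 5 were, with a median of 0.06. Ndufa11, an accessory subunit of respiratory complex I (chr17:56717818-56717877), was higher by 0.38 ± 0.14 (standard error). It stood at 4.27, 4.13 and 4.36 in mock, between 4.51 and 4.78 in the 6 irradiated samples, and the groups did not overlap. Its limma adjusted p was 0.172. Ndufa9, another complex I subunit and the only matched gene of the 30 in the oxidative phosphorylation list, was higher by 0.21 ± 0.16. Its groups overlapped and limma's adjusted p was 0.454. Ndufb11, also of complex I, and Mrpl2, also of the mitochondrial ribosome, each differed by 0.12, with standard errors of 0.17 and 0.18. For Mrpl2 this turned to -0.22 with slide as a fixed block and -0.04 with quantile normalization. Cox20, an assembly factor of cytochrome c oxidase, was higher by 0.18 ± 0.22, and Timm22, the channel of an inner membrane protein translocase, was lower by 0.23 ± 0.32. This grouping, like those below, was made after the values had been seen, and is a description only.

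**Figure D2:**
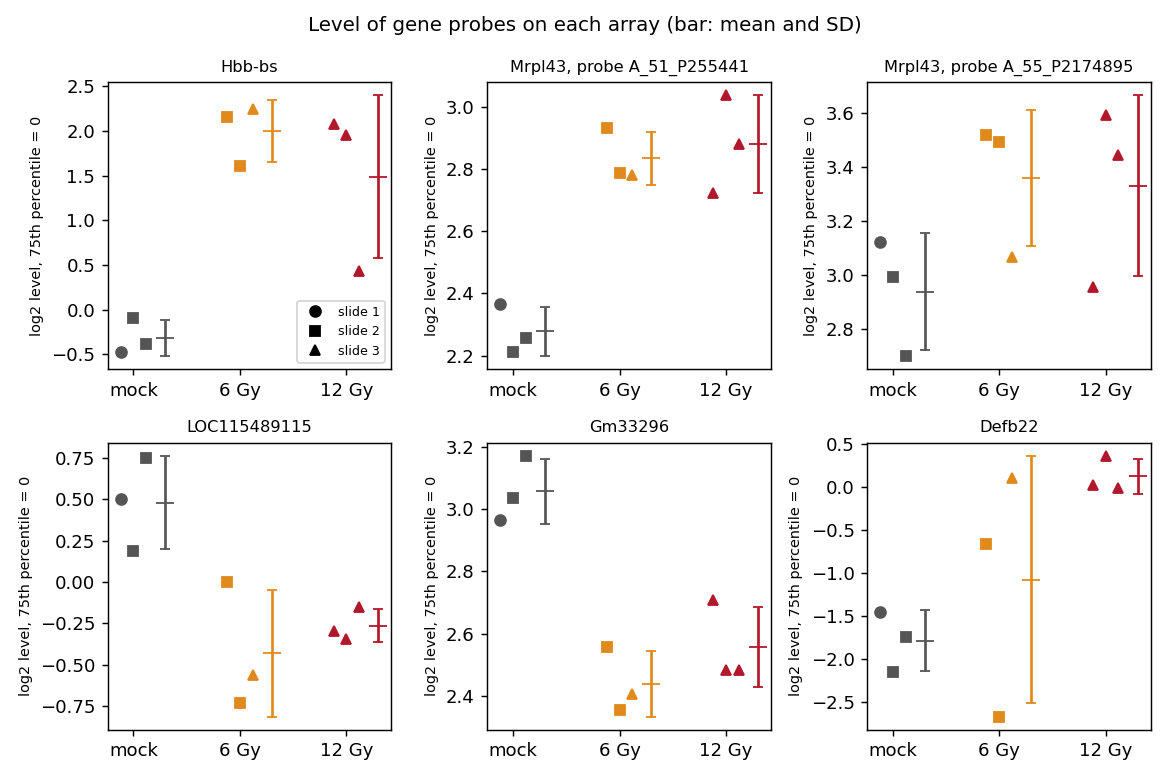
Level on each of the 9 arrays (log2, with each array's 75th percentile at 0 and an own vertical axis per panel) for 6 gene probes, by group, with marker shape for the slide and a bar for the mean and SD of 3 arrays. The irradiated arrays lie above all mock arrays for Hbb-bs and for Mrpl43 probe A_51_P255441, lie below them for LOC115489115 and Gm33296, and overlap them for Mrpl43 probe A_55_P2174895 and Defb22.

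Of 7 genes for RNA synthesis and processing, 4 had a positive and 3 a negative difference, with a median of 0.10; with quantile normalization 1 was positive and 6 negative. Trmt112 (chr19:6910099-6910158) stood at -0.86, -0.88 and -0.32 in mock, -0.01, -0.25 and 0.06 at 6 Gy, and 0.29, -0.11 and -0.13 at 12 Gy. The groups did not overlap, and limma's adjusted p was 0.103. This probe too was well above background on 2 of the 3 mock arrays and entered the test through the irradiated groups. Nothing is read from its p or its lack of overlap either. Its difference was 0.29 with normexp and an offset of 50. Cnot3, a scaffold of the complex that shortens poly(A) tails (41 bases at chr7:3645386-3645426), was lower by 0.30 ± 0.16 with no overlap between the groups. Limma's adjusted p was 0.308, and with slide as a fixed block the difference turned to 0.08. Polr2i, an RNA polymerase II subunit, was lower by 0.37 ± 0.39, and Ubtf, a factor for ribosomal RNA transcription, differed by 0.14 ± 0.21, or by -0.48 with slide as a fixed block and -0.01 with quantile normalization.

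In the secretory pathway 3 genes were located, 2 with a positive difference, or 1 with quantile normalization. Sdf4, a calcium-binding protein of the Golgi that sorts secreted cargo (chr4:156013490-156013549), was higher by 0.42 ± 0.14. It stood at 2.58, 2.51 and 2.34 in mock, 3.05, 2.998 and 2.94 at 6 Gy, and 2.92, 2.64 and 2.82 at 12 Gy. The groups did not overlap, and limma's adjusted p was 0.141. Sec24c, which picks cargo for vesicles that leave the endoplasmic reticulum (chr14:20694756-20694815), was lower by 0.37 ± 0.22 with overlapping groups. Sec61b, part of the channel through which proteins enter that compartment, differed by 0.04 ± 0.15.

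Atraid, a membrane glycoprotein named for its induction by retinoic acid (chr5:31054559-31054618), stood at 3.44, 3.10 and 3.28 in mock, 3.79, 3.80 and 3.82 at 6 Gy, and 3.54, 3.91 and 3.92 at 12 Gy. The 6 irradiated arrays were all above mock, the difference was 0.52 ± 0.15, and limma's adjusted p was 0.111. Bri3, a small membrane protein (chr5:144255836-144255895), was higher by 0.43 ± 0.19. The probe also lies opposite the transcript 2900089D17Rik. Tmem94, a membrane protein (chr11:115777285-115777344), was higher by 0.49 ± 0.22. Mafg, a small Maf protein that pairs with NRF2 and related factors on DNA (chr11:120625151-120625210), was higher by 0.38 ± 0.19, and with slide as a fixed block its difference turned to -0.09. Groups overlapped for the last 3 genes.

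All 4 located genes with epithelial or defence roles had a positive difference, with a median of 0.27, beside 64.8% positive over all tested probes. They had it under the quantile, detected-median and E1A scalings too. The group was drawn up after the values were seen and holds Defb22, chosen by detection where it is high, so the count is a description only. Defb22, a β-defensin (48 bases at chr2:152490089-152490136), was at or near background: it was well above background on 0 of 3 mock arrays, 2 of 3 at 6 Gy and 3 of 3 at 12 Gy. It stood at -1.46, -2.15 and -1.75 in mock, -0.66, -2.67 and 0.11 at 6 Gy, and 0.02, 0.36 and -0.01 at 12 Gy. The array of 6 Gy replicate 2 was below every mock array and the other 5 irradiated arrays were above them. The mock level is only a bound, and the mean of the 6 irradiated arrays stood 1.22-fold above that bound. This mean includes the 6 Gy array that was not well above background, so 1.22-fold is no strict minimum. Defb22 entered the test only through the 12 Gy group, where it is high, so nothing is read from its limma adjusted p of 0.18. With slide as a fixed block its difference shrank from 1.31 to 0.29. Such a fold sets the mean of the brighter group, over all its arrays, against a bound for the dimmer group. Per array of the dimmer group, the bound is the higher of the probe's own level and the lowest level well above background. The fold holds for this background correction only. Plet1, a surface protein of epithelial progenitors, was higher by 0.28 ± 0.19, Slfn5, a Schlafen family gene inducible by interferon, by 0.26 ± 0.15, and Plac8 by 0.26 ± 0.23. With slide as a fixed block these were 0.32, 0.03 and 0.9998.

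Among 9 signalling probes for 8 genes, 4 were positive and 5 negative, with a median of -0.05; with the E1A scaling 7 were positive. Shc1, an adaptor that links receptor tyrosine kinases to Ras (42 bases at chr3:89429964-89430005), stood at 1.03, 0.84 and 0.99 in mock, 0.61, 0.33 and 0.31 at 6 Gy, and 0.89, 0.79 and 0.81 at 12 Gy. The 6 Gy arrays were all below mock and 1 of the 12 Gy arrays lay within the mock range. The difference was -0.53 at 6 Gy and -0.12 at 12 Gy, and limma's adjusted p for the difference between the doses was 1. Numb, an inhibitor of Notch signalling, had 2 probes of opposite sign, at -0.15 ± 0.18 and 0.41 ± 0.50, the second turning to -0.37 without mock replicate 1. Of the 6 genes with more than 1 tested probe, 3 had probes of opposite sign, none of them at an unadjusted p under 0.05.

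Genes of chromatin and chromosomes, 5 in number, had 2 positive and 3 negative differences, 4 and 1 with the E1A scaling, and none at an unadjusted p under 0.05. The replication-dependent histone genes H4c8 and H3c3, whose transcripts are made in S phase, differed by -0.24 ± 0.16 and 0.31 ± 0.23, or by -0.08 and 0.07 with slide as a fixed block. Ncapd3, a condensin subunit for chromosome folding, differed by -0.05 ± 0.16. None of the 38 genes of the proliferation list and none of the 35 p53 target genes was matched to a tested probe, so neither response can be read from these named genes. Of the 26 lists, with 529 distinct genes, 2 genes were matched, and the defining markers of stomach cell types were not analysed here.

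LOC115489115 was the lower gene with the smallest p. Its probe (48 bases at chrX:136214921-136214968, plus strand) lies on the opposite strand of Bex1, a small brain-expressed X-linked gene. Its level was 0.50, 0.19 and 0.75 in mock, 0.00, -0.73 and -0.56 at 6 Gy, and -0.29, -0.35 and -0.15 at 12 Gy. All irradiated arrays were below all mock arrays, the 95% interval of the difference was -1.27 to -0.38, and limma's adjusted p was 0.0873. With normexp and an offset of 50 the difference was -0.39.

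Gm33296 was the lower long non-coding RNA with the smallest p. Its probe (46 bases at chr8:85159125-85159170, minus strand) lies opposite Cks1brt, a copy of a cell cycle kinase subunit gene. Its level was 2.96, 3.04 and 3.17 in mock, 2.56, 2.35 and 2.41 at 6 Gy, and 2.71, 2.48 and 2.48 at 12 Gy. The groups did not overlap, the 95% interval was -0.87 to -0.25, and limma's adjusted p was 0.0918.

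In all, 29 tested probes read 27 long non-coding RNAs, with 17 positive and 12 negative differences and a median of 0.12, or 13, 16 and -0.04 with quantile normalization. The 82 probes of protein-coding genes had 54 positive and 28 negative differences and a median of 0.12 too. Of these, 2 of the 29 (6.9%) and 10 of the 82 (12.2%) had an unadjusted p under 0.05, both below the 21.3% of all tested probes. Besides Gm33296, 4933439C10Rik (chr11:59506793-59506852) was lower by 0.51 ± 0.21, from -0.27, 0.07 and 0.26 in mock to between -0.95 and -0.24 after irradiation. Gm31676 was higher by 0.39 ± 0.19 and 0.34 ± 0.25 in 2 probes that lie next to each other, and Gm36753, opposite Sgms2, by 0.39 ± 0.19. With slide as a fixed block these became 0.02 and 0.43 for Gm31676 and 0.10 for Gm36753. Gas5, host of small nucleolar RNAs, was higher by 0.16 ± 0.14. 9330158H04Rik was lower by 0.74 ± 0.45, with mock arrays at 0.66, 2.23 and 1.92 and irradiated arrays between 0.15 and 1.87. 2900076A07Rik, Gm10353 and 1700067G17Rik were lower by 0.33 to 0.42 with overlapping groups, and with slide as a fixed block their differences were -0.02, -0.09 and -0.94. Gm36753 entered the test only through the 12 Gy group, and 2900076A07Rik only through mock, in each case where the probe is high. Of the protein-coding genes in none of the groups above, Phldb3 was lower by 0.93 ± 0.49, but 6 Gy replicate 3 alone was at -1.97. With slide as a fixed block the difference turned to 0.52, a value that leans on that same array as the only link between slides 2 and 3. On slide 2 alone, without that array, it was -0.31. Gm9222 was lower by 0.28 ± 0.18 and 0.15 ± 0.21 in its 2 probes, with -0.02 and -0.64 when slide was a fixed block.

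**Figure D3:**
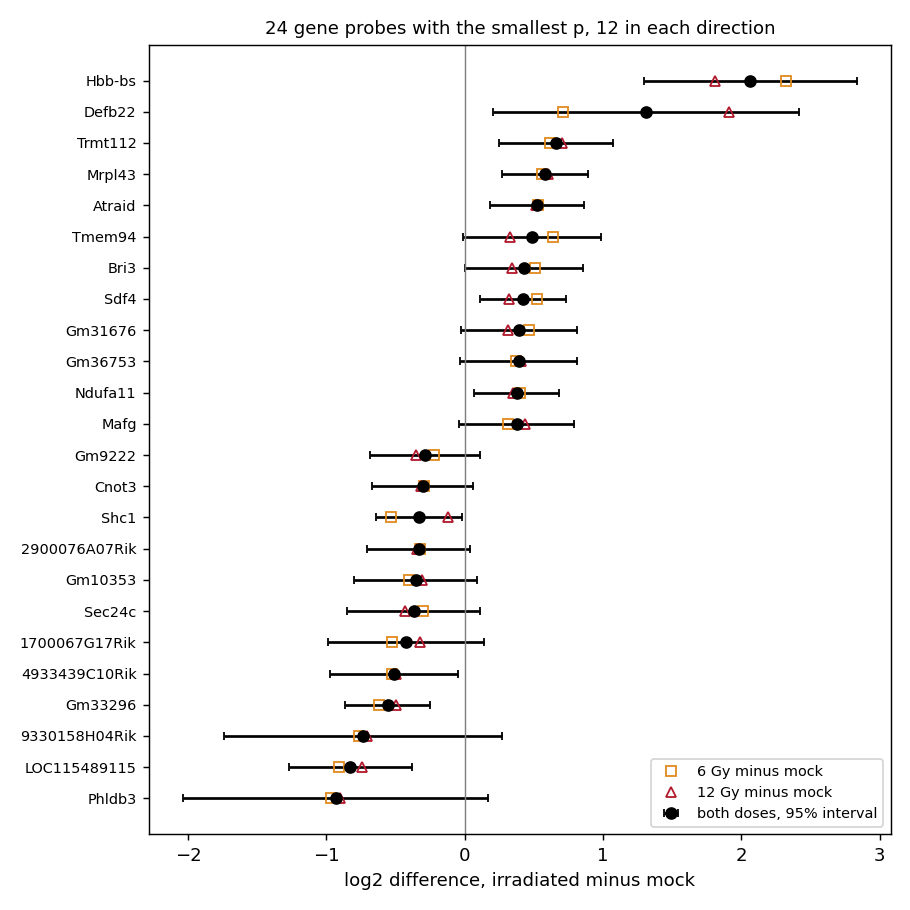
Log2 difference, irradiated minus mock (horizontal axis), for the 12 gene probes with the smallest p in each direction, 1 per gene. Black points are both doses with the 95% interval from limma, squares are 6 Gy minus mock and triangles 12 Gy minus mock, which share the mock arrays, and no gene passed the adjusted threshold.

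Of the gene probes, 12 of 111 (10.8%) had an unadjusted p under 0.05, beside 21.3% of all tested probes, and 9 of 111 had no overlap between groups, beside 12.3%. With places accepted from 30 matched bases the count was 12 of 128 (9.38%), and with all 60 bases matched 7 of 86 (8.14%). The named genes were found by their position and are no random sample of the array. Among the other located probes, A_55_P2037538 lies on the opposite strand of Tanc2, a scaffold protein of synapses, at that gene's start (chr11:105589775-105589834, minus strand). Its level was 1.69, 1.66 and 1.96 in mock, 2.43, 2.43 and 3.01 at 6 Gy, and 2.89, 2.82 and 2.48 at 12 Gy. It was higher by 0.90 ± 0.19 with no overlap, a limma adjusted p of 0.0817, and a difference of 0.48 with slide as a fixed block.

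The 2 probes of smallest p in each direction among those not located through the windows around gene starts have no gene name here. Where they lie in the genome was not analysed, and their bases are given so that they can be identified. All are shown whole except A_55_P1969396, which is given as the 30 bases from its AATAAA, the letters of a polyadenylation signal, in capitals:
A_55_P2032081: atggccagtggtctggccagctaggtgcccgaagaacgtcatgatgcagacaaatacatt
A_55_P1969396: AATAAAggcagctgctgatttgttgttaaa
mmu_16036_PI428960544: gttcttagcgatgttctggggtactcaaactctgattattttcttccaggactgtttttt
mmu_17827_PI428960544: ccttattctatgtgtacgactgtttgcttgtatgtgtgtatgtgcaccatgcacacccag

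A_55_P2032081 was on mock arrays at 1.20, 1.84 and 1.05 and on irradiated arrays between 3.05 and 4.16, a difference of 2.13 ± 0.24 (standard error). A_55_P1969396 was well above background on 0 mock arrays and on 4 irradiated arrays. Its irradiated mean stood 1.15-fold above the bound for mock. That mean includes the irradiated arrays not well above background, so 1.15-fold is no strict minimum. Both mmu probes were detected above background in every mock sample and in no irradiated one. The first was at least 1.56-fold lower, from -0.25, -0.32 and -0.11 to between -1.997 and -1.04, and the second at least 1.25-fold lower, from -0.25, -0.95 and -0.44 to between -3.45 and -2.18. The groups of A_55_P2032081, which was well above background on all 9 arrays, did not overlap. Limma's adjusted p was 0.0817 for all 4 probes, but the other 3 entered the test only through the group in which they are high, and nothing is read from their p or their lack of overlap. With normexp and an offset of 50 the differences were 1.69, 0.42, -0.38 and -0.49 in the order of the sequences, so those of the 3 dim probes shrank most.

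Detection patterns were counted over all probes. In every mock and no irradiated sample, 76 probes (0.0833% of all) stood well above background. Of these, 90.8% carried names of the mmu or A_30 series, which hold 56.8% of the array. In no mock and every irradiated sample, 34 probes (0.0373%) did, and 29.4% carried such names. The 2 patterns ask for unequal numbers of arrays, so their counts cannot be compared. Such names also made up 41.8% of probes well above background on all 9 arrays and 65.4% of those on none. The labels do not say what the name series stand for. The median difference was -1.06 in the first set and 0.93 in the second, values that the choice by detection fixes in sign. The 25272 probes well above background on all 9 arrays had a median difference of 0.14.

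The same name series differed among all tested probes. Counted at p under 0.05 without adjustment, 23.4% of the A_51 series were higher and 1.56% lower, and in A_52 25.4% and 1.94%. In A_55 17.4% were higher and 3.25% lower. The mmu series had 9.13% higher and 11.4% lower, and the A_30 series 8.71% and 8.73%. Under quantile normalization mmu had 5.69% higher and 14.8% lower while A_51 had 13.2% higher and 3.13% lower, so A_51 had more higher than lower probes and mmu more lower than higher probes under both scalings. Series differed in level as well, with a median of 0.81 for mmu and 1.42 for A_51.

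**Figure D4:**
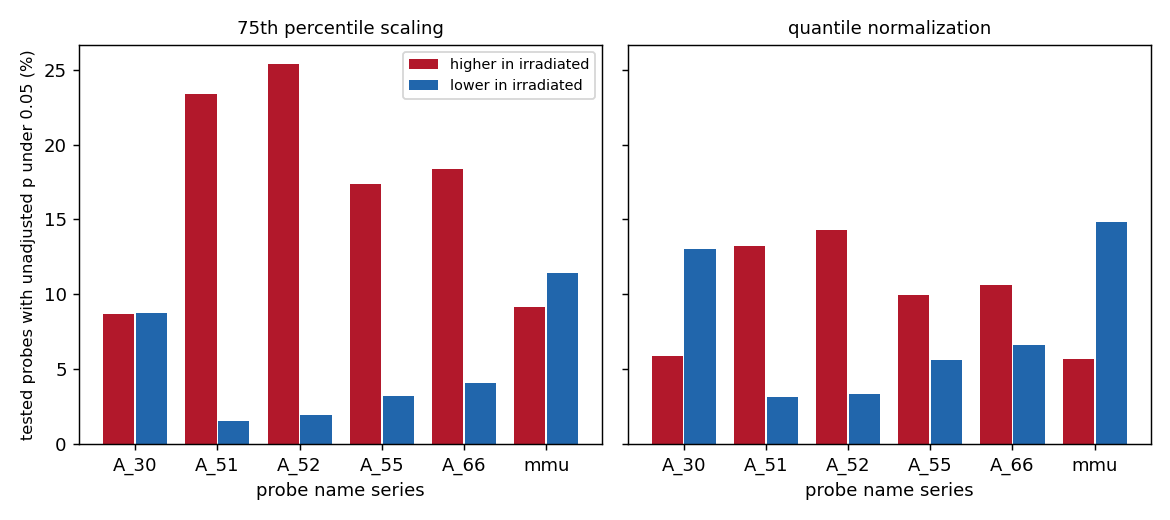
Percentage of tested probes at an unadjusted limma p under 0.05 (vertical axis) by probe name series, higher (red) and lower (blue) in irradiated stomach, with 75th percentile scaling (left) and quantile normalization (right). The A_51, A_52, A_55 and A_66 bars are taller for higher in both panels, and the mmu bars taller for lower in both; the A_65 series, with 127 probes, is not drawn.

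The difference moved with brightness. From the dimmest to the brightest sixth of probes by mean level, the median difference was 0.03, 0.07, 0.12, 0.15, 0.19 and 0.17. Under quantile normalization it was 0.08 in the dimmest sixth and between 0.02 and 0.03 in the others. Lower probes were most frequent in the dimmest sixth, at 13.6%, beside 3.88% in the brightest. What brightness contributed to the differences between name series was not tested.

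Probe composition was compared for the probes at an adjusted p under 0.1. The median GC content was 40% in the 859 higher probes, 43.3% in the 452 lower ones and 43.3% in all tested probes. Within the probes of the catalogue series (A_51, A_52, A_55, A_65 and A_66) it was 40% in the higher, 45% in the lower and 45% in all. The letters AATAAA were found on the printed strand in 11.1% of higher, 8.63% of lower and 10.66% of all tested probes, and TTTATT, the same letters on the other strand, in 3.26%, 4.42% and 3.79%. These shares lie close to those of all tested probes, and no test was made of them.

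Probes that share part of their sequence read the same stretch of RNA and served as a technical check. There were 783 pairs of tested probes that overlap end to end by 20 to 59 bases and in which neither probe has a further partner at that end. Across these pairs the 2 differences had a Pearson correlation of 0.79 and a median gap of 0.12. Pairs share their arrays and much of their sequence, so this describes repeatability between spots and not between mice. In 239 pairs at least 1 probe had an unadjusted p under 0.05, and in 44.8% of those both had. Of the pairs in which both had, 79 were higher in both, 27 lower in both and 1 opposite.

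**Figure D5:**
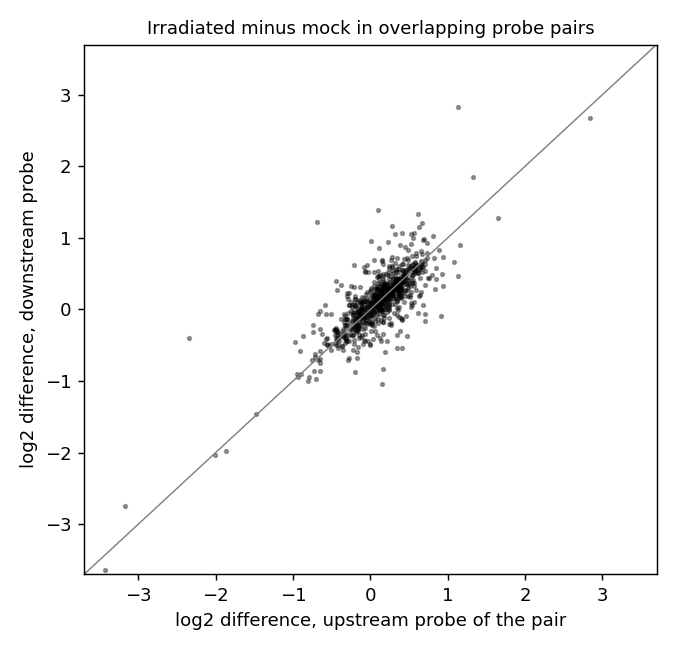
Log2 difference, irradiated minus mock, of the downstream probe (vertical axis) against that of the upstream probe (horizontal axis) for pairs of tested probes sharing 20 to 59 bases, with the line of equality. The 783 pairs in which neither probe has a further partner at that end are drawn, with a correlation of 0.79. Over all 1547 pairs, also those of probes that overlap several others, the correlation was 0.71.

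The files themselves name Gapdh and Pgk1, glycolytic enzymes read by control probes at each end of the transcript. Over 9 single measures compared by exact two-sided permutation of 6 irradiated against 3 mock arrays, where the smallest possible p is 0.0238, none passed after adjustment. Gapdh 5′ stood at 8.81 ± 0.25 in irradiated (SD, n = 6) and 8.44 ± 0.15 in mock (SD, n = 3), with an exact permutation p of 0.0476 and an adjusted p of 0.427. Pgk1 3′ stood at 5.55 ± 0.22 and 5.24 ± 0.36, with an exact permutation p of 0.19. The 3′ minus 5′ difference was lower by 0.21 for Gapdh and higher by 0.21 for Pgk1 after irradiation, with exact permutation p of 0.143 and 0.238. Probes well above background made up 36.4% ± 2.18 in irradiated and 36.1% ± 4.21 in mock (SD, n = 6 and 3), with an exact permutation p of 0.833.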

How the data were processed

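RNA from 9 stomach samples was labelled with Cy3 per the labels' protocols and read with Agilent Feature Extraction 10.7.1.1 per the submitters' processing notes. The deposited scanner values are processed intensity on a linear scale, background-corrected by that program. The authors' deposited table of log2 values served as an alternative; how it was made is not given in the sources used here. Control spots and 183 outlier-flagged spot values were left out, spots of a probe were averaged, and log2 values were taken relative to the 75th percentile. A probe counted as well above background where the flag was set on a share of its spots of 0.5 or more.

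Differences were tested with limma 3.58.1 (R 4.3.3, lmFit and eBayes, a mean per group, all 9 arrays), adjusted by Benjamini-Hochberg over all 32004 probes. The fitting was tested on simulated data with independent normal noise and no slide or scaling effect. That test therefore does not cover such effects in these arrays. Single values used exact permutation (SciPy 1.17.1). Standard errors and 95% intervals are limma's. A limma p-value weighs a difference between groups against the spread between arrays within groups. Without slide as a term, that spread mixes mice with slides.

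The members and lists were chosen with earlier results of these data known. Named genes are, for each direction, the 12 of smallest p, 1 probe per gene, and genes of the lists. The rule allowed 5 unnamed probes per direction, of which 2 are printed. The minimum of 40 matched bases, first 25 and then 30, was raised after the located genes and their values had been seen, to drop short, repeat-like matches. The gene groups, the E1A scaling and the restriction to probes with 1 overlapping partner at an end were also chosen after values were seen, and other genes named in the groups were named after their values were seen. Same-numbered arrays were not treated as pairs: 3 of 9 such pairs had deviations correlated over 0.1. Across groups the highest correlation, 0.49, was between 6 Gy replicate 2 and 12 Gy replicate 3, which differ in number. The lowest, -0.45, was between 6 Gy replicate 3 and 12 Gy replicate 3, which share one.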

Additional observations from a re-analysis of the deposited data

How the results depend on the processing

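With an adjusted p under 0.1 in place of 0.05, irradiated against mock gave 1311 probes and the gene lists 1 gene, Hbb-bs. Leaving out each array in turn gave 0 to 2 probes at an adjusted p under 0.05 for both doses together, 0 to 1 for 6 Gy, 0 to 2 for 12 Gy and 0 to 1 for the gene lists. Calls came without 12 Gy replicate 3, 12 Gy replicate 2 (6 Gy only), mock replicate 1 or mock replicate 3. The other alternatives gave 0 in the 3 comparisons. Counts at an unadjusted p under 0.05 ran from 5005 to 7802, 3562 to 6385 and 3615 to 7061 over the arrays left out. The E1A scaling, added after seeing the data, gave 9461 for both doses together and 8895 for 6 Gy. No filter gave 9870 for both doses together, 7161 for 6 Gy and 8515 for 12 Gy, but of 91188 probes in place of 32004. Slide as a fixed block gave 4963 for both doses together and 3125 for 12 Gy, and slide as a random block 3393 for 12 Gy. With replicate number as a block, 0 probes were called for both doses and 6178 had an unadjusted p under 0.05. Since the arrays share only a number, this is not a paired analysis. Of 655 refitted values for the 29 named genes and probes, 651 kept their direction and side of the threshold. Hbb-bs passed once, without 12 Gy replicate 3, at 2.33, but it entered the test through the groups where it is high. Nothing is read from its p here or at the looser threshold. With slide as a fixed block Mafg turned to -0.09, Phldb3 to 0.52 and Cnot3 to 0.08. These values lean on 6 Gy replicate 3, the only link between slides 2 and 3. Each list gene matched 1 tested probe, so averaging the probes of a gene was not run. No slide held 12 Gy and mock arrays, so a comparison within slides was run for 6 Gy only. Probes not well above background in a group give only a bound there.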
